A study of Mus musculus with 24 samples.

Results

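Circular RNAs from 3 genes that encode ubiquitin ligase proteins, Fbxw4, Fbxw7 and Trim33, were followed in mouse cardiac fibroblasts after pressure overload of the heart. A member was any junction in the table whose ends both match exon edges of one of these genes on the listed strand. This rule found 6 of the 1717 circular RNAs: 4 from Fbxw4, 1 from Fbxw7 and 1 from Trim33. The 3 genes were picked with earlier results of these libraries in view, among them the abundance of an Fbxw4 circle and the lack of Trim33 reads in TAC libraries at 8 weeks. Abundance ranks and the Trim33 values at 8 weeks and averaged over the times are therefore described here without a test.

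The TAC animals had thoracic aortic constriction (TAC), in which a ligature tied around the transverse aorta over a needle narrows the vessel and loads the left ventricle with pressure. The sham animals had the operation without the ligature. All were male C57BL/6J mice, with no transgene or drug arm, operated under Avertin anaesthesia at 8 weeks of age. Fibroblasts were isolated on a Langendorff perfusion system 1, 4 or 8 weeks later, giving 4 TAC and 4 sham libraries at 1 week, 4 TAC and 5 sham libraries at 4 weeks, and 3 TAC and 4 sham libraries at 8 weeks. The labels name neither a cell sort nor a culture step, and do not say whether each library is 1 mouse, so any p-value here measures variation between libraries that could be technical in part or whole. The libraries were made from total RNA after removal of ribosomal RNA, and the labelled protocols name no step that enriches circles.

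Ubiquitin ligases choose the proteins to which the small protein ubiquitin is attached, a mark that often sends them to the proteasome. F-box proteins such as Fbxw4 and Fbxw7 are the substrate receptors of SCF ligases, which are built on a cullin scaffold. Fbxw7 is a tumour suppressor that recognises phosphorylated cyclin E, Myc, Notch and Jun. Fbxw4, also called dactylin, is known from the limb defect of dactylaplasia mice, and its substrates are poorly defined. Trim33 is a RING domain protein of the nucleus, known for its action on Smad4, the shared mediator of TGF-beta signalling, the main profibrotic pathway of cardiac fibroblasts. A circular RNA forms when the end of an exon is spliced back to the start of the same or an earlier exon. Such circles lack free ends and are often long-lived, and the level of a circle is not the level of the messenger RNA or protein of its gene.

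The 6 junctions are shown first because they are the measured objects: a read was counted for a circle when it crossed its junction. Each line below gives the spliced RNA in the 5′ to 3′ sense, with the last 30 bases of the circle's final exon in lower case and the first 30 bases of its first exon in capitals. Sequences were taken from GENCODE M21 transcripts, and coordinates refer to mm10.
Fbxw4 exons 2 to 5, chr19:45630865-45640521, minus strand: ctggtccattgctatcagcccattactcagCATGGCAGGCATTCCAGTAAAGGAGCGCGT
Fbxw4 exons 2 to 4, chr19:45635735-45640521, minus strand: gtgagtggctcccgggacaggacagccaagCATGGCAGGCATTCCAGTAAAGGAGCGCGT
Fbxw4 exons 2 to 6, chr19:45591729-45640521, minus strand: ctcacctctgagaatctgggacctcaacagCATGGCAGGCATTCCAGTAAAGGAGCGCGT
Fbxw4 exons 3 to 5, chr19:45630865-45636448, minus strand: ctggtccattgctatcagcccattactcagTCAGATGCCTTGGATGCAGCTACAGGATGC
Fbxw7 exon 4, chr3:84903501-84904079, plus strand: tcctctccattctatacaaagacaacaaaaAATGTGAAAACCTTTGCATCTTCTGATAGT
Trim33 exons 2 to 4, chr3:103310309-103311513, plus strand: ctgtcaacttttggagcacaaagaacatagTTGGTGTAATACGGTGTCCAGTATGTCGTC
The first 3 lines carry the same capitals, since these Fbxw4 circles share the start of exon 2 and differ in the exon whose end is joined to it. The circles of exons 2 to 5 and 3 to 5 carry the same lower-case letters, the end of exon 5.

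The Fbxw4 circles use exons 2 to 6 of the 9 exons of transcript ENSMUST00000046869.10 (gene ENSMUSG00000040913.11), all of them coding sequence. The circle of exons 2 to 5 spans 9657 bases of the genome and holds 510 bases after splicing. The circle of exons 2 to 4 holds 415 bases, that of exons 3 to 5 holds 414 bases, and that of exons 2 to 6 holds 576 bases over 48793 bases of the genome. Of the 1657 circles for which a transcript with both edges was found, 96.9% had a smaller genomic span than the circle of exons 2 to 6. Exons 5 and 6, which separate the circles that start at exon 2, have 95 and 66 bases, and are printed whole:
Fbxw4 exon 5, chr19:45630865-45630959, minus strand: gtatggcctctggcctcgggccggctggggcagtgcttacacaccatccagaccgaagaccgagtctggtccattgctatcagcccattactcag
Fbxw4 exon 6, chr19:45591729-45591794, minus strand: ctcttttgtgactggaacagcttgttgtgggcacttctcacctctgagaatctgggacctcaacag
With exon 5 the spliced circle becomes a multiple of 3 bases, and exon 6 keeps it so.

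**Figure D1:**
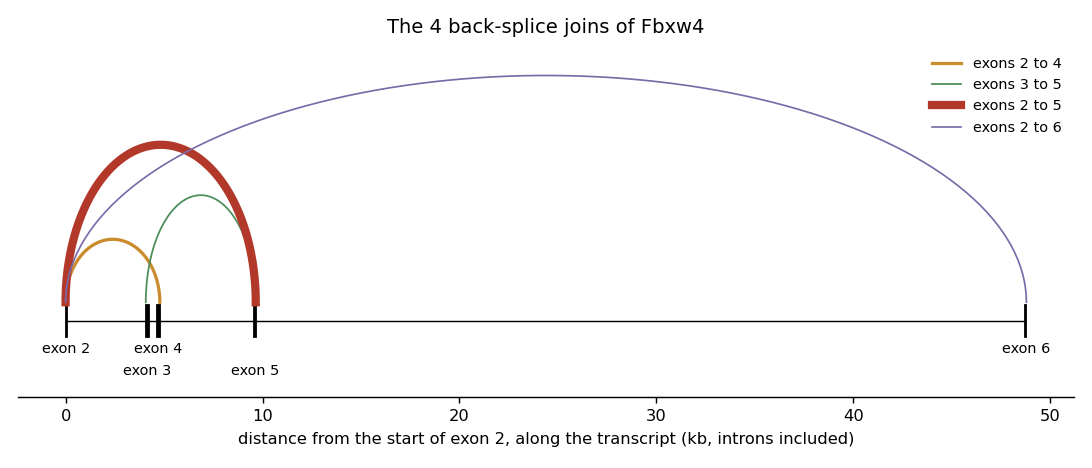
Map of the 4 Fbxw4 circles on the gene, to scale along the horizontal axis in kb from the start of exon 2 with introns included; vertical bars are exons 2 to 6, each arc joins the 2 ends spliced together, arc width grows with the mean normalized reads over 24 libraries, and arc height only separates the arcs. The widest arc, exons 2 to 5, averaged 30.1 normalized reads, and 3 of the 4 arcs start at exon 2.

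The Fbxw7 circle is 1 exon, number 4 of the 14 exons of transcript ENSMUST00000107679.7 (gene ENSMUSG00000028086.15). It has 579 bases, of which 69 are untranslated and 510 are coding, and it holds the annotated ATG of that transcript. The reading frame of that ATG runs for 170 codons to the end of the exon, and, read on around the closed circle, met 0 stop codons in 193 codons per turn. The Trim33 circle joins exons 2 to 4 of the 20 exons of transcript ENSMUST00000029444.12 (gene ENSMUSG00000033014.12), 397 coding bases over 1205 bases of the genome. Among all 1657 circles, 6.40% were of a single exon, as the Fbxw7 circle is.

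Further features that the choice of genes did not use were compared with all circles, as descriptions. Exon 2 was the first exon in 4 of the 6 circles, and in 34.7% of the 1657 circles. The Fbxw4 circles share exons, so here and in the counts that follow the 6 circles are not 6 separate cases. The spliced length was a multiple of 3 in 4 of the 6, the circles of Fbxw4 exons 2 to 5, 3 to 5 and 2 to 6 and of Fbxw7, and in 35.5% of all. Each of these 4 had a frame with an ATG and no stop codon around the circle, and so had 79.3% of the 589 circles with such a length. The introns beside the main Fbxw4 circle were 19254 bases upstream and 39070 bases downstream. Those beside the Fbxw7 circle were 39300 and 50795 bases, and those beside the Trim33 circle 29862 and 10031 bases. Fbxw4 exons 2 to 4 had 19254 and 4775 bases, exons 3 to 5 had 3977 and 39070, and exons 2 to 6 had 19254 and 11935. The medians over all circles were 11081 and 9671 bases. The downstream intron of exons 2 to 4 and the upstream intron of exons 3 to 5 were below these medians. An open frame in letters is no evidence of translation, which was not measured here.

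The table gives junction reads scaled per library by the authors, called normalized reads here. Undoing that scaling gave 3595 to 9146 junction reads per library over all 1717 circles, and 1 read was worth 0.642 to 1.57 normalized reads. TAC libraries at 4 weeks were the deepest, with 6846 to 9146 reads against 3618 to 6524 in sham libraries of that time. Of 17 fibroblast marker genes, 3 hosted a circle (Dcn, Fbn1 and Svep1), and the circles of these genes summed to 11.7 to 24.6 normalized reads in TAC libraries and 3.01 to 15.1 in sham libraries at 1 week, 13.5 to 15.4 against 6.11 to 11.98 at 4 weeks, and 9.43 to 21.5 against 1.06 to 18.3 at 8 weeks. These sums had higher means in TAC libraries at each time, without overlap at 4 weeks. The fibroblast markers Pdgfra, Tcf21 and Col1a1 had no circle in the table, so these data check the cell type only weakly. Circles of 7 of 20 cardiomyocyte marker genes, Ttn and Ryr2 among them, summed to less in TAC than in sham libraries at each time, with no overlap: 24.9 to 32.3 against 39.3 to 144 at 1 week, 17.4 to 41.1 against 41.5 to 128 at 4 weeks, and 42.0 to 52.1 against 62.6 to 128 at 8 weeks. Circles of 4 of 18 leukocyte marker genes summed to 149 in sham 1-week replicate 1, against at most 63.6 in the other sham libraries of that time. These sums ran from 54.5 to 123 in TAC and from 51.1 to 149 in sham libraries at 1 week. They were 35.6 to 91.7 against 59.9 to 141 at 4 weeks, and 67.0 to 89.1 against 71.3 to 113 at 8 weeks. The groups overlapped at each time. Circles of 3 of 12 endothelial marker genes summed to 8.98 to 11.5 in TAC and 5.02 to 16.5 in sham libraries at 1 week. The endothelial sums were 11.0 to 18.6 against 6.28 to 16.8 at 4 weeks, and 13.3 to 16.8 against 5.77 to 14.9 at 8 weeks. These groups overlapped at each time too. The part of these cell types in the values below was not tested. In such bulk libraries fewer cells of a type and less RNA per cell cannot be told apart.

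The circle of Fbxw4 exons 2 to 5 was by far the highest of the 6 circles. Over the 24 libraries it averaged 30.1 ± 9.70 normalized reads (SD), had a read in all of them, and stood 8th of 1717 by its mean, between an Nfkb1 circle of exons 2 to 6 at 32.3 ± 11.9 and a Rad52 circle of exons 10 to 11 at 29.8 ± 6.95. Its neighbours in this order do not differ from it beyond their spread. Its rank was 11 over the TAC libraries and 8 over the sham libraries, and in single libraries it ran from 3 to 87. Fbxw4 exons 2 to 4 followed at 7.88 ± 4.10 normalized reads, rank 133, also read in 24 of 24 libraries. It was below exons 2 to 5 in every one of the 24.

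The other 4 circles were scarce and close to each other. Fbxw4 exons 3 to 5 averaged 1.59 ± 1.39 normalized reads (39 reads in 18 of 24 libraries), Fbxw7 exon 4 averaged 1.498 ± 1.35 (37 reads in 16), Trim33 exons 2 to 4 averaged 1.45 ± 1.43 (35 reads in 16), and Fbxw4 exons 2 to 6 averaged 1.13 ± 1.21 (27 reads in 14). Neighbours in this order exchanged places from library to library: Fbxw7 was above Trim33 in 8 libraries, level in 8 and below in 8. Their ranks by mean, 1002, 1072, 1121 and 1469, therefore separate them by less than their spread. Of the 6 circles, 2 had a mean of at least 5 reads, as 272 of all 1717 did.

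**Figure D2:**
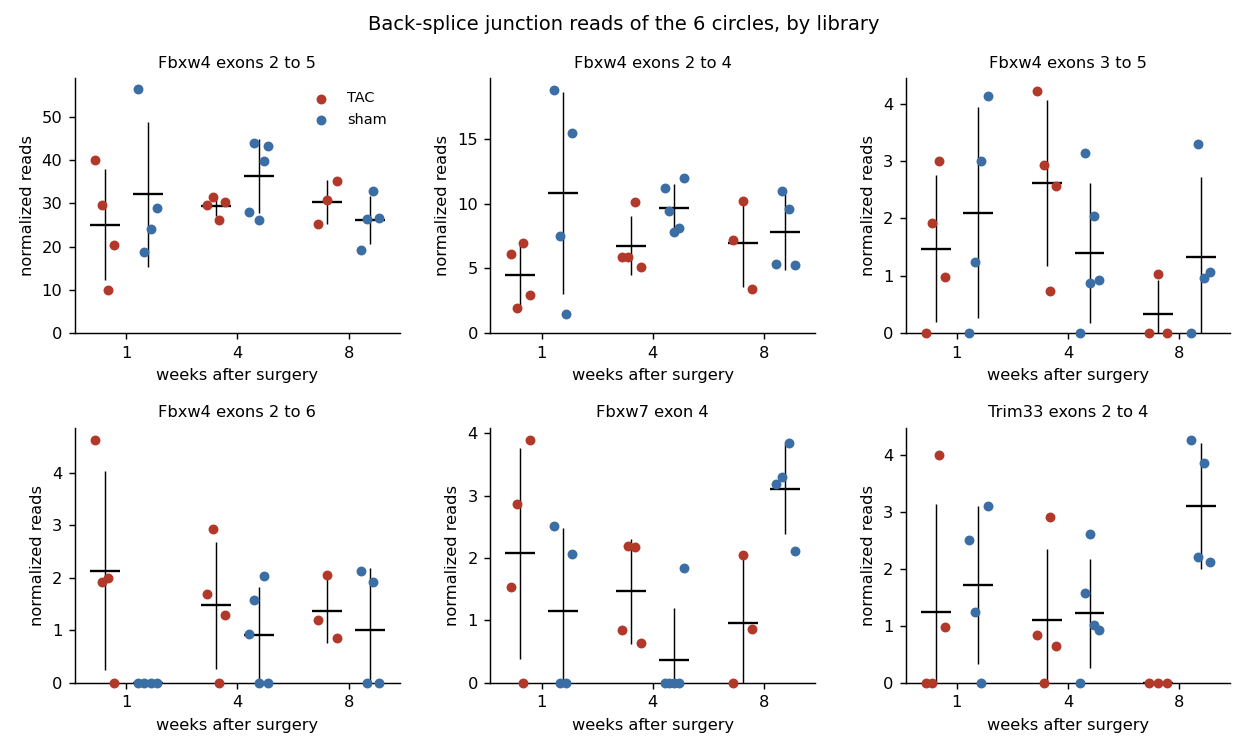
Normalized back-splice junction reads of the 6 circles in each of the 24 libraries (vertical axes, each panel with its own scale from 0), by weeks after surgery, TAC in red left of sham in blue; horizontal lines are group means and vertical lines ± 1 SD, drawn no lower than 0. Fbxw4 exons 2 to 5 lies at 9.98 to 56.5 in every library, while Trim33 sits at 0 in all 3 TAC libraries at 8 weeks.

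Together the 4 Fbxw4 circles gave 974 reads, 0.701% of all junction reads, against 0.0266% for Fbxw7 and 0.0252% for Trim33. Exons 2 to 5 made up 73.9% of the Fbxw4 reads (95% exact binomial interval 71.0 to 76.7), exons 2 to 4 made up 19.3% (16.9 to 21.9), exons 3 to 5 made up 4.00% and exons 2 to 6 made up 2.77%. Intervals and limits of this kind cover counting error only, as reads amplified by PCR are not independent molecules. The share of exons 2 to 5 had a median of 75.0% over the 24 libraries, and ranged from 45.5% in TAC 1-week replicate 3 to 89.1% in TAC 8-week replicate 3. It was the largest share in every library.

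The same circle led in TAC and in sham libraries. Exons 2 to 5 held 75.1% of 454 Fbxw4 reads in TAC libraries and 72.9% of 520 in sham libraries. Exons 2 to 4 held 16.1% (12.8 to 19.8) in TAC libraries and 22.1% (18.6 to 25.9) in sham libraries, and single libraries ran from 5.41% to 31.8% in TAC and from 5.26% to 31.9% in sham. Exons 2 to 6 held 4.19% (2.54 to 6.46) in TAC libraries and 1.54% (0.666 to 3.01) in sham libraries. The ranges over single libraries overlapped for each circle, and these shares were not tested between the groups.

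**Figure D3:**
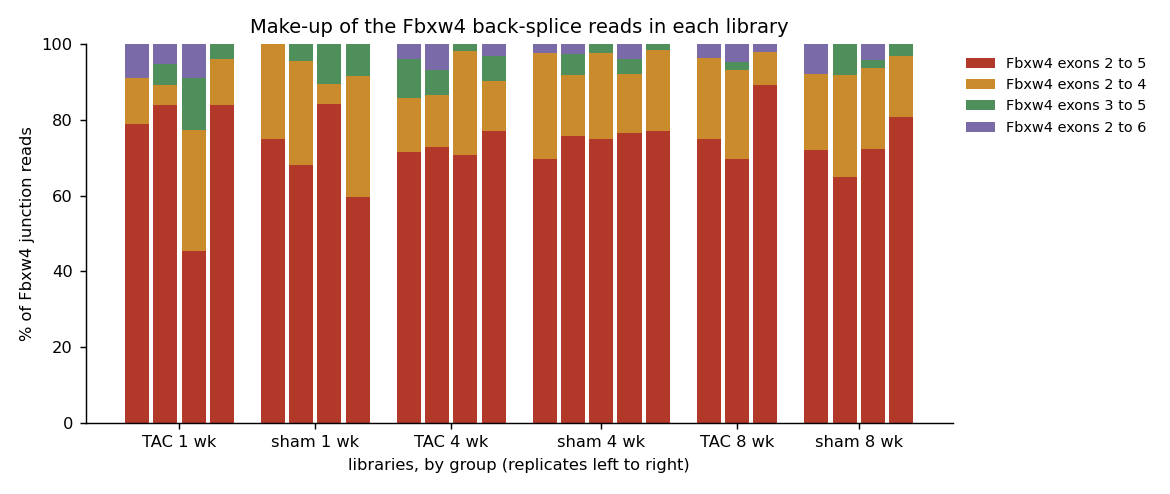
Percent of the Fbxw4 junction reads that belonged to each of its 4 circles (vertical axis, 0 to 100%), 1 bar per library, grouped by surgery and time with replicates from left to right. The red part, exons 2 to 5, is the largest in every bar, at 45.5% to 89.1%.

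The main comparison asked whether the circles differ between fibroblasts of pressure-overloaded and sham hearts. No member passed the test: limma with Benjamini-Hochberg adjustment over all 1717 circles called 0 of the 6 members at an adjusted p under 0.05 at 1 and 4 weeks, and 0 of the 5 members other than Trim33 at 8 weeks and averaged over the times. The same fits called 1.46% of all circles at 1 week, 0.116% at 4 weeks, 0% at 8 weeks and 0.641% averaged over the times. At an unadjusted p under 0.05 there was 1 member at 1 week and 0 at 4 weeks, and of the 5 without Trim33 there was 0 at 8 weeks and 1 in the average (Fbxw4 exons 2 to 6, as at 1 week), against 11.7%, 7.98%, 6.06% and 9.90% of all circles. limma-voom, run on the recovered reads, also called 0 of these members in each. Of all 1717 circles it called 11 at 1 week, 7 at 4 weeks, 0 at 8 weeks and 19 averaged over the times. The median log2 difference of the 6 members was -0.34 at 1 week and 0.15 at 4 weeks, and that of all circles was 0.04 and 0.12. Fold changes below are TAC over sham on the log2(normalized reads + 0.5) scale, which understates changes of scarce circles, and are given with the standard error and the 95% interval of the difference.

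For Fbxw4 exons 2 to 5, no difference was larger than the spread between libraries. At 1 week it had 40.0, 29.7, 9.98 and 20.4 normalized reads in TAC libraries, against 56.5, 18.7, 24.04 and 28.95 in sham libraries. The groups overlapped, with the highest value in sham replicate 1, the library that also had the highest sum of leukocyte circles at that time, and the lowest in TAC replicate 3. The log2 difference was -0.39 ± 0.32 (interval -1.01 to 0.23, limma adjusted p = 0.668). It was -0.02 without TAC replicate 3 and -0.67 without TAC replicate 1.

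At 4 weeks the TAC libraries lay close together at 29.6, 31.5, 26.1 and 30.2 normalized reads, inside the sham range of 28.0, 44.0, 26.0, 39.7 and 43.3. The log2 difference was -0.27 ± 0.30 (-0.86 to 0.32, limma adjusted p = 0.901). At 8 weeks the TAC libraries had 25.1, 30.6 and 35.1 normalized reads, against 19.2, 26.4, 32.7 and 26.5 in sham libraries. These groups overlapped too, with a log2 difference of 0.22 ± 0.34 (-0.45 to 0.89, limma adjusted p = 0.945). Averaged over the times the interval was -0.51 to 0.22 around -0.15, the narrowest of the 6 members. In each group of surgery and time, the library highest for Fbxw4 exons 2 to 5 also had the highest sum of leukocyte circles. The lowest library was shared as well at 4 and 8 weeks, in TAC and in sham, but not at 1 week. A link between the circle and these cells was not tested.

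The circle of Fbxw4 exons 2 to 4 had lower means in TAC than in sham libraries at each time, none of which passed the test. At 1 week it had 6.15, 1.92, 6.99 and 2.92 normalized reads in TAC libraries, against 18.8, 7.48, 1.503 and 15.5 in sham libraries. The highest 3 values were all sham, but sham replicate 3, with 1 read, was the lowest of all 8. The log2 difference was -0.90 ± 0.53 (-1.93 to 0.14, limma adjusted p = 0.504), and it was -1.59 without sham replicate 3 and -0.50 without sham replicate 1.

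At 4 weeks exons 2 to 4 had 5.92, 5.87, 10.2 and 5.14 normalized reads in TAC libraries, against 11.2, 9.43, 7.81, 8.14 and 11.98 in sham libraries. TAC replicate 3 alone reached into the sham range, and the log2 difference was -0.52 ± 0.50 (-1.50 to 0.47, limma adjusted p = 0.885). At 8 weeks the values were 7.18, 10.2 and 3.43 in TAC libraries, against 5.32, 11.0, 9.62 and 5.30 in sham libraries. The groups overlapped, although the lowest library was TAC replicate 3 and the highest was sham replicate 2. That difference was -0.21 ± 0.57 (-1.33 to 0.91, limma adjusted p = 0.978). The average over the times was -0.54 ± 0.31 (-1.15 to 0.07, limma adjusted p = 0.554).

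Fbxw4 exons 2 to 6, the longest circle, was read in 3 of 4 TAC libraries at 1 week and in 0 of 4 sham libraries. Its TAC values were 4.61, 1.92, 2.00 and 0 normalized reads, from 7 reads in all. The 0 of 18724 junction reads in the sham group allow a share of up to 0.0160%, where the TAC share was 0.0336% (0.0135 to 0.0692). The TAC mean was 2.30 times that limit, which is 3 reads over the sham group. This sets no least fold, since the TAC interval starts below the limit. The groups overlapped at 0, and the limma adjusted p was 0.226 (unadjusted 0.0141). Without TAC replicate 1, which gave 3 of the 7 reads, the TAC mean was 1.40 times the limit.

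At the later times the same circle was read in sham libraries as well. At 4 weeks it had 1.69, 2.93, 0 and 1.28 normalized reads in TAC libraries, against 0.934, 1.57, 0, 2.04 and 0 in sham libraries. At 8 weeks it had 1.197, 2.04 and 0.857 in TAC libraries, against 2.13, 0, 1.92 and 0 in sham libraries. Both pairs of groups overlapped, with log2 differences of 0.50 ± 0.77 (limma adjusted p = 0.939) and 0.68 ± 0.87 (limma adjusted p = 0.942). Averaged over the times the difference was 1.06 ± 0.47 (interval 0.13 to 1.98), which did not pass after adjustment (limma adjusted p = 0.400, unadjusted 0.0251). The TAC means were above the sham means at all 3 times, at 2.13, 1.48 and 1.37 against 0, 0.908 and 1.01 normalized reads.

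For Fbxw4 exons 3 to 5 the sign of the difference varied between times, and no difference passed the test. Its means were 1.47, 2.61 and 0.341 normalized reads in TAC libraries and 2.10, 1.39 and 1.33 in sham libraries at 1, 4 and 8 weeks, from 1 to 14 reads a group, and the groups overlapped at each time. The log2 differences were -0.30 ± 0.81, 0.85 ± 0.77 and -0.99 ± 0.87, with limma adjusted p-values of 0.945, 0.884 and 0.914. Within TAC libraries it was lower at 8 than at 4 weeks by a log2 difference of -1.95 ± 0.87, which did not pass after adjustment (limma adjusted p = 0.946, unadjusted 0.0257, with 0% of all circles called in that comparison).

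**Figure D4:**
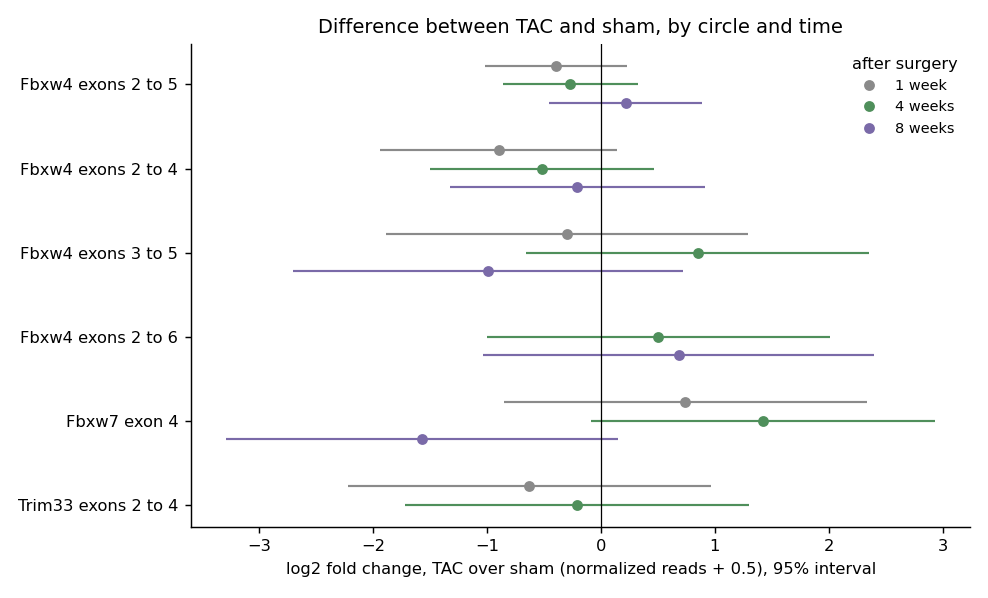
Log2 fold change of TAC over sham on the log2(normalized reads + 0.5) scale (horizontal axis) for each circle at 1, 4 and 8 weeks, with points for the limma estimate and lines for its 95% interval. The pairs with a group of 0 reads, Fbxw4 exons 2 to 6 at 1 week and Trim33 at 8 weeks, have no finite fold and are not drawn. The fitted interval of Fbxw4 exons 2 to 6 at 1 week, 0.40 to 3.57, lies off 0. That of Trim33 at 8 weeks is not given, as those values were part of its choice. Every interval drawn includes 0, and that of Fbxw4 exons 2 to 5 at 4 weeks, -0.86 to 0.32, is the narrowest.

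The Fbxw7 circle had a positive TAC difference at 4 weeks and a negative one at 8 weeks, both on few reads and neither past the test. At 1 week it had 1.54, 2.88, 0 and 3.89 normalized reads in TAC libraries, against 2.51, 0, 0 and 2.07 in sham libraries, and the groups overlapped. At 4 weeks the 4 TAC libraries all had reads, at 0.845, 2.20, 2.18 and 0.642 normalized reads, while sham replicate 5 alone of 5 did, at 1.84. At 8 weeks TAC libraries had 0, 2.04 and 0.857 normalized reads, against 3.19, 3.30, 3.85 and 2.12 in sham libraries.

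The groups overlapped at 4 weeks and not at 8 weeks, when all sham libraries lay above all TAC libraries. Over all circles 3.03% showed the same order without overlap at 8 weeks. The gap was narrow: TAC replicate 2 and sham replicate 4 had 2 reads each, and only the scaling for depth set 2.04 below 2.12. The log2 differences were 0.74 ± 0.81 (-0.85 to 2.33, limma adjusted p = 0.784) at 1 week, 1.42 ± 0.77 (-0.09 to 2.93, limma adjusted p = 0.685) at 4 weeks, and -1.57 ± 0.87 (-3.29 to 0.15, limma adjusted p = 0.810) at 8 weeks. The value at 8 weeks was -0.94 without TAC replicate 1, and with a pseudocount of 0.1 the values were 2.94 at 4 weeks and -2.42 at 8 weeks, none of them called. The difference between the effects, 8 minus 4 weeks, was -2.99 ± 1.16 and did not pass after adjustment (limma adjusted p = 0.598, unadjusted 0.0104), nor did any other circle of the table in that limma comparison (0% called, 109 of 1717 at an unadjusted p under 0.05, and 2 called by limma-voom).

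Most of that shift lay between the sham groups. Sham libraries averaged 3.12 ± 0.723 normalized reads of the Fbxw7 circle at 8 weeks (SD, n = 4) and 0.369 ± 0.824 at 4 weeks (SD, n = 5). The groups did not overlap, as held for 2.21% of all circles in that direction, but the lowest sham library at 8 weeks and the highest at 4 weeks had 2 reads each. The log2 difference was 2.38 ± 0.77, with an unadjusted p of 0.00199 and a limma adjusted p of 0.594. TAC libraries averaged 0.967 ± 1.03 at 8 weeks (SD, n = 3) and 1.47 ± 0.839 at 4 weeks (SD, n = 4), and overlapped.

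The Trim33 circle had 0 reads in all 3 TAC libraries at 8 weeks, against 4.26, 2.20, 3.85 and 2.12 normalized reads in the 4 sham libraries, from 4, 2, 4 and 2 reads. The 0 of 17094 TAC junction reads allow a share of up to 0.0176%, and the sham share was 0.0546% (0.0282 to 0.0954). This pattern, 0 reads in every TAC library and a read in every sham library, was shared by 0.524% of all circles at that time, and it is part of why Trim33 is described, so nothing is read from it.

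At the earlier times the Trim33 groups overlapped. At 1 week TAC libraries had 0, 0, 3.99 and 0.973 normalized reads, against 2.51, 1.25, 0 and 3.102 in sham libraries, a log2 difference of -0.63 ± 0.81 (-2.22 to 0.96, limma adjusted p = 0.828). At 4 weeks TAC libraries had 0.845, 0, 2.90 and 0.642, against 0, 1.57, 2.603, 1.02 and 0.921 in sham libraries, a difference of -0.21 ± 0.77 (-1.72 to 1.298, limma adjusted p = 0.972). TAC 1-week replicate 3 and TAC 4-week replicate 3, with 4 reads each, were the highest libraries of their times. The sham means were 1.72, 1.22 and 3.11 normalized reads at 1, 4 and 8 weeks.

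Time after surgery was also compared within each surgery. Leaving out Trim33 where its libraries at 8 weeks enter, TAC or sham, limma called 0 members in all 9 further comparisons. These are 3 differences of the TAC effect between times, 3 pairs of times in TAC and 3 pairs of times in sham. limma-voom called 0 members in these comparisons as well. At an unadjusted p under 0.05 there was 1 of these members in the difference of 8 minus 4 weeks (Fbxw7), 1 in TAC at 8 against 4 weeks, and 1 each in sham at 8 against 1 and at 8 against 4 weeks. Over all circles the share called by limma was 0.116% for sham at 8 against 1 week and 0% for the other 8, in each of which 71 or more circles had an unadjusted p under 0.05 and limma-voom called 0 to 2. The Fbxw7 circle in sham libraries at 8 against 1 week had an unadjusted p of 0.0496 and a limma adjusted p of 0.663.

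The spread between libraries was also set beside that of counting alone. The variance of the reads within groups, divided by that expected from counting at the same depth, was 2.90 for Fbxw4 exons 2 to 5 and 1.54 for exons 2 to 4, where circles with a mean of at least 5 reads had a median of 1.59. It was 1.10 for Fbxw4 exons 3 to 5, 1.14 for exons 2 to 6, 1.05 for Fbxw7 and 1.27 for Trim33, where the median of all circles was 1.23. Counting gives 1, and separate samples exceed it more readily the more reads a circle has, so these values do not rank the circles by how variable they are.

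Likeness between circles was described by Pearson's r of the log2 values over the 24 libraries, with circles of a mean of at least 5 reads as candidates. The circles most like Fbxw4 exons 2 to 5 were Pdlim5 exons 10 to 11 (r = 0.71), Taok2 exons 5 to 8 (r = 0.70) and Smox exons 2 to 3 (r = 0.68). For Fbxw7 they were Arhgap12 exons 2 to 3 (r = 0.54), Farsa exons 5 to 7 and Gsap exons 24 to 26 (r = 0.49 each). For Trim33 they were Hdgfl3 exons 2 to 5 (r = 0.54), Zfp148 exons 2 to 4 (r = 0.47) and Fbxw4 exons 2 to 4 (r = 0.45). All points share library, depth and scaling, and the Fbxw7 and Trim33 values rest on 0 to 4 reads a library.

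The wider ubiquitin system was present in the table with 85 further circles from 64 genes, by lists written with earlier results of these data known: 7 circles of F-box genes, 15 of cullins and their regulators, 1 of a TRIM gene, 14 of HECT ligases, 31 of other RING ligases, 3 of activating or conjugating enzymes and 14 of deubiquitinases. limma called 0 of the 85 in either direction at 1, 4 or 8 weeks or averaged over the times, and limma-voom also called 0. At an unadjusted p under 0.05 there were 5, 8, 3 and 4 of them, which is 5.88%, 9.41%, 3.53% and 4.71%, where 11.7%, 7.98%, 6.06% and 9.90% of all circles were under it. Differences were positive in 52, 49, 46 and 56 of the 85, which is 61.2%, 57.6%, 54.1% and 65.9%, where 51.9%, 56.4%, 51.4% and 55.9% of all circles were positive. Their median log2 differences were 0.17, 0.13, 0.06 and 0.12, and those of all circles 0.04, 0.12, 0.03 and 0.06.

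At 4 weeks, differences were positive in 3 of the 7 F-box circles (median log2 difference -0.34), 11 of the 15 cullin circles (0.71), 12 of the 14 HECT ligase circles (0.55), 14 of the 31 other RING circles (-0.19), 1 of the 3 enzyme circles (-0.42), 7 of the 14 deubiquitinase circles (0.09) and the 1 TRIM circle (1.32). At 1 and 8 weeks, differences were positive in 10 and 8 of the 15 cullin circles, and in 8 and 7 of the 14 HECT ligase circles. The F-box circles had 5 and 4 of 7, the other RING circles 16 and 17 of 31, and the enzyme circles 1 and 2 of 3. The deubiquitinase circles had 12 and 8 of 14, and the TRIM circle was negative at both times. None of these circles was called at any of these times. The 5 most abundant circles of these lists came from genes with varied roles. Rnf169, a RING protein of the DNA damage response, had a circle of exons 2 to 4 at 36.3 ± 8.12 normalized reads over the 24 libraries, rank 4 and above Fbxw4 exons 2 to 5. Ube3a, the HECT ligase lost in Angelman syndrome, had one of exons 2 to 4 at 24.1 ± 6.97, rank 17. Usp3, a deubiquitinase, had one of exons 2 to 8 at 12.2 ± 6.36, Ube2k, a conjugating enzyme, one of exons 2 to 6 at 11.7 ± 6.22, and Rnf114, a RING ligase, one of exons 4 to 6 at 10.9 ± 3.78. Of the 3 genes studied here only Fbxw4 had a circle at such a level.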

How the data were processed

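The deposited table lists circular RNAs by junction with 1 column per library. It holds scaled signal values: per the file name it is a DCC table, and from the values, each entry is a whole number of junction reads divided by a factor of its library, plus 0.01, as the authors deposited it. How the factors and filters were set is not given in the sources. FastQC, Trimmomatic, STAR and mm10 are named in the submitters' processing notes, without versions. The offset of 0.01 was subtracted, and 100% of values were then within 0.001 of a whole number of reads.

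Junction edges were matched to GENCODE M21 exons on the listed strand: 1666 of 1717 junctions matched at both edges, 36 at 1 and 15 at none, over 1188 host genes. No row inside the 3 genes was left out by the rule, and no 2 libraries were identical. Differences were tested with limma 3.58.1 (R 4.3.3) with an intensity trend on log2(normalized reads + 0.5), all 24 libraries in 6 groups, Benjamini-Hochberg adjustment over 1717 circles and a threshold of 0.05. On data simulated for the 1-week comparison with all 1717 circles, the fit was tested for recovery of 4-fold changes. Alternatives were pseudocounts of 0.1 and 1, a mean of at least 5 reads, scaling by total junction reads, limma-voom on the recovered reads, the compared groups alone, a replicate block and each library left out. At 1 week the replicate numbers of the titles may pair the samples: 4 of 4 same-numbered pairs correlated over 0.1 in their deviations (0.155 to 0.257 over 272 circles). Of these, 3 correlated best with their own number. The main fit did not use this pairing, and the replicate block did. The members and the gene lists were chosen with earlier results of these data known. Every member is described, with values per library for those the results turn on. The likeness rule takes, for the highest circle of each gene, the 3 circles with the highest r, and from the wider lists the 5 most abundant are named.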

Additional observations from a re-analysis of the deposited data

Results flagged for a closer look

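In 30 groups of 4 or 5 libraries, 5 for each of the 6 circles, 1 library was set against the rest by its gap over the whole range. For normally distributed values, chance meets this rule in about 1 of 20 groups. That rate does not hold for scarce reads, where a lone library above others at 0 always meets the rule. The rule flagged 2 libraries. Fbxw4 exons 2 to 4 had 10.2 normalized reads (14 reads) in TAC 4-week replicate 3, where the other 3 TAC libraries of that time had 5.14 to 5.92, a gap of 0.845 of the whole range. Fbxw7 exon 4 had 1.84 normalized reads (2 reads) in sham 4-week replicate 5, where the other 4 sham libraries had 0.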

How the results depend on the processing

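Leaving out Trim33 where its libraries at 8 weeks enter, TAC or sham, the count of called members was 0 in every comparison and under every alternative run. No call was gained or lost, including with the replicate block (0 of these members called at 1, 4 and 8 weeks and averaged over the times). At 4 and 8 weeks the replicate numbers of the titles are not taken to pair the samples: correlations of same-numbered libraries ran from -0.19 to 0.21, 3 of 7 pairs exceeded 0.1 and 4 of 7 correlated best with their own number. Column names number some libraries differently from the titles, and those numbers were not used. Signs of uncalled log2 differences turned when 1 library was left out in 4 cases. Over the libraries left out in turn, Fbxw4 exons 3 to 5 ran from -0.95 to 0.26 at 1 week and from -0.36 to 0.037 averaged over the times, Trim33 from -0.69 to 0.24 at 4 weeks, and Fbxw4 exons 2 to 4 from -0.53 to 0.20 at 8 weeks. The cause was not tested. Other uncalled values of the scarce circles moved by over 1.5 times with the pseudocount or 1 library left out, as for Fbxw7. Circles called among all 1717 ranged from 4 (compared groups only) to 32 at 1 week around 25, with 11 by limma-voom, from 0 (pseudocount 0.1) to 14 (compared groups only) at 4 weeks around 2, and from 4 (without TAC 8-week replicate 1) to 19 (limma-voom) in the average around 11, and were 0 at 8 weeks throughout. Mean levels under scaling by total junction reads, or in TAC or sham libraries alone, moved by less than 1 SD. Depth limits the 4 scarce circles, whose groups held 0 to 14 reads.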
